A study of Homo sapiens with 101 samples.

Results

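The genes described here are 39 genes of G2 phase and mitosis from a list that leaves out the genes with KIF symbols, read in HT1080 cells, a human fibrosarcoma line in culture, after 11 compounds. They were taken from a fixed list of symbols, each gene read through its brightest probe set on average across the arrays, out of 19774 genes on the array. All 39 had a probe set and all 39 passed the filter on dim genes, which required a mean log2 signal of 4 or more in at least 1 of 17 groups and left 11496 tested genes. The study gave each compound at 1 dose, picked to raise total p53 protein by 1.5-fold, and the labels give no exposure time. The compounds read against the control DMSO_pooled were MMC (mitomycin C, 0.1 µM, 5 samples), NCS (neocarzinostatin, 10 ng/ml, 6 samples), H2O2 (hydrogen peroxide, 100 µM, 5 samples), ENU (ethylnitrosourea, 2 mM, 6 samples), GAD (2 mM, 6 samples) and tBHQ (tert-butylhydroquinone, 200 µM, 6 samples). The labels do not state that tie, which was read from array quantiles shared within the set. BRO (600 µM), CUR (curcumin, 10 µM), ETP (etoposide, 0.3 µM) and QUE (quercetin, 30 µM) each had a DMSO control of their own, and MMS (methyl methanesulfonate, 200 µM) had the control MMS_CTL, with 6 samples in each of these groups. All doses were added at the same dilution of a DMSO stock, and every group is the same cell line with no genetic change stated. GAD and BRO are codes that the labels do not spell out.

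Entry into mitosis is driven by CDK1 bound to B-type cyclins, and exit by the anaphase promoting complex (APC/C), a ubiquitin ligase that CDC20 directs to cyclin B and securin. Between these steps the kinetochore proteins tie chromosomes to spindle fibres, the spindle checkpoint holds anaphase back, and condensins and topoisomerase II shape the chromosomes. Most of these genes are transcribed late in the cell cycle. Their promoters are known to be bound through a cell cycle homology region (CHR) by the MuvB complex, which works with the repressors of the DREAM complex in resting cells and with B-MYB and FOXM1 in dividing ones, while NF-Y binds CCAAT boxes nearby. p53, through the CDK inhibitor p21, is known to lower this programme by way of DREAM.

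The promoters of the genes on which the results turn show these elements. They were taken from RefSeq on GRCh38.p14, from 100 bases before the start site to 20 after it, 120 bases each on the gene's strand and written 5′ to 3′. Capitals mark the CHR letters TTTGAA, which read TTCAAA on the opposite strand, or TTCGAA. They also mark the CCAAT box, which reads ATTGG on the opposite strand. Where a CCAAT match overlaps one on the opposite strand, as in HMMR, only the first is in capitals. CCNB1, CCNB2, CDK1 and PLK1 are the cyclins and kinases that start mitosis. CDC20 and BUB1 belong to the spindle checkpoint, DLGAP5, HMMR and CKAP2L to the spindle, and TOP2A to the chromosomes.
CCNB1, chr5:69167050-69167169, plus strand: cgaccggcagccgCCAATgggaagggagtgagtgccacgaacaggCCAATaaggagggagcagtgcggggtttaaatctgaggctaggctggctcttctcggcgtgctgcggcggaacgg
CCNB2, chr15:59105046-59105165, plus strand: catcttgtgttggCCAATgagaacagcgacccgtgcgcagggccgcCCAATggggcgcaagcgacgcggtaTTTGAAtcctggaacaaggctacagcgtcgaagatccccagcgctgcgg
CDK1, chr10:60778378-60778497, plus strand: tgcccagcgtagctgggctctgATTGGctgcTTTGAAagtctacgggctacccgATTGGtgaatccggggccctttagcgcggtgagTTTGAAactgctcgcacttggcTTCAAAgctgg
PLK1, chr16:23678789-23678908, plus strand: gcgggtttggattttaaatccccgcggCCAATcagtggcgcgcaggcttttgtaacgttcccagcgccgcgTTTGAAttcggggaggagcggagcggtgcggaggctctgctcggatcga
CDC20, chr1:43358881-43359000, plus strand: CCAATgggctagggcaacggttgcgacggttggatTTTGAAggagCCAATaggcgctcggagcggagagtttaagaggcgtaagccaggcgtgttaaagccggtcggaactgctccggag
BUB1, chr2:110678044-110678163, minus strand: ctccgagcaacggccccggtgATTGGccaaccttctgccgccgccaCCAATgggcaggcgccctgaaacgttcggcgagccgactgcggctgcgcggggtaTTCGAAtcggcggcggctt
DLGAP5, chr14:55191566-55191685, minus strand: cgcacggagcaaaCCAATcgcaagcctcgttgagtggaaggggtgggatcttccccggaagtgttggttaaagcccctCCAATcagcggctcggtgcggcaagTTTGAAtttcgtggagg
HMMR, chr5:163460532-163460651, plus strand: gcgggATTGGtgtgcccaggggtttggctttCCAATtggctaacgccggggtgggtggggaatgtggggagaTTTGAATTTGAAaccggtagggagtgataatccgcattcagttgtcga
CKAP2L, chr2:112764590-112764709, minus strand: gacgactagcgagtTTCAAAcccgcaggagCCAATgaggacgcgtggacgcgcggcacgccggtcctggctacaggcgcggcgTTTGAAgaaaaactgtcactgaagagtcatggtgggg
TOP2A, chr17:40417877-40417996, minus strand: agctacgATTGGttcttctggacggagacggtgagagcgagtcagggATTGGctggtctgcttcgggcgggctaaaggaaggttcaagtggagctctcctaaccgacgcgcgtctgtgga
CDK1 had 2 start sites in the RefSeq table, and the window of the other one held none of these letters. CCNB1 held a pair of CCAAT boxes and none of these CHR letters, and other spellings of the element were not searched. TOP2A also showed CCAAT boxes alone here, with CHR letters further out. HMMR held adjoining CHR elements. The table had a promoter for 34 of the 39 genes and none was used for TPX2, BIRC5, TTK, UBE2C and AURKA.

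Over the full promoters in the table, from 250 bases before the start site to 50 after it, CHR letters stood in 26 of 34 member promoters (76.5%). They stood in 19.5% of 27305 genes with a promoter, and in 15.9% of the 9494 of these that were tested. A CCAAT box stood in 26 of 34 (76.5%), against 39.7% of all genes and 44% of tested genes. Both stood in 21 (61.8%), against 7.85% and 6.77%. The 15 genes of the APC/C list held CHR letters in 4 promoters and both elements in 0. These are matches to letters on either strand, with no binding measured, and CHR and CCAAT letters can share at most a single base.

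Values are log2 signals as deposited, and a gene was called when limma gave a Benjamini-Hochberg adjusted p under 0.05 over all tested genes and at least a 1.5-fold difference between a compound and its control. Array medians lay between 2.885 and 3.537, close to each other within each of 6 sets. The medians of the CUR and MMS sets overlapped and the 5th percentiles of their arrays did not, so levels were compared within a set only. VIM, FN1, SPARC, CD44 and LGALS1, markers of mesenchymal cells, had group means from 10.8 to 13.2. EPCAM, CDH1, CDH3, CLDN4, PTPRC, CD3E and HBB, markers of epithelium and blood, had group means from 2.00 to 3.68. CDKN1A, which encodes p21 and reports p53 activity, was called higher in 9 compounds, by 0.70 in MMC up to 1.36 in GAD, and was not called in CUR (0.51) or tBHQ (0.33). The labels do not say that replicates were separate cultures, so the p-values reflect sample-to-sample spread that may be technical.

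Some libraries stood apart from their groups. The library labelled ETP replicate 2 had the lowest value of its group in 38 of 39 genes, and the library labelled QUE replicate 3 in 38 of 39. Without QUE replicate 3, 29 of the 30 calls in QUE held and AURKB lost its call (limma adjusted p = 0.051). The 39 fold changes there had a median of -0.78, all 39 were negative, and a called value was at most 1.49 times smaller. Without ETP replicate 2 the calls of SPC25 (-0.85) and AURKB (-0.65) in ETP held, but 30 of the 39 fold changes moved by over 1.5 times, with a median of -0.11, a range from -0.85 to 0.39 and 28 negative. MMS_CTL replicate 3 was lowest in 37 of 39, and its upper quartile over all genes was 5.545, against 6.119 to 6.163 in the other MMS_CTL arrays. CUR_DMSO replicate 5 was lowest in 35 of 39, and its upper quartile was 5.440, against 5.688 to 5.888 in the other CUR_DMSO arrays. NCS replicate 3 was lowest in 39 of 39, H2O2 replicate 3 in 38 of 39 and GAD replicate 6 in 36 of 39.

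The mean of the 39 genes in each sample was lowest relative to its control in QUE. QUE samples had means of 7.17, 8.37, 8.55, 8.91, 9.03 and 9.06, against QUE_DMSO samples between 9.35 and 9.93. All 6 QUE samples were below every control, and the group means differed by -1.11 (8.52 ± 0.71 in QUE, 9.62 ± 0.23 in QUE_DMSO, SD, n = 6 each). Without QUE replicate 3 the difference was -0.84. In a bulk culture, fewer cells in G2 or mitosis and less RNA of these genes per cell cannot be told apart. The difference was -0.62 in GAD, -0.50 in NCS and -0.42 in tBHQ, with 5 of 6 treated samples below every DMSO_pooled sample in each of these. It was -0.46 in H2O2 with 3 of 5 samples below every control, or -0.26 without H2O2 replicate 3. ETP differed by -0.44, or -0.14 without ETP replicate 2. BRO differed by -0.20, or by -0.31 without BRO replicate 4 and -0.12 without BRO replicate 3, and CUR by -0.17, or -0.25 without CUR_DMSO replicate 5. MMC differed by -0.0020, ENU by 0.19 and MMS by 0.05, or -0.04 without MMS_CTL replicate 3.

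**Figure D1:**
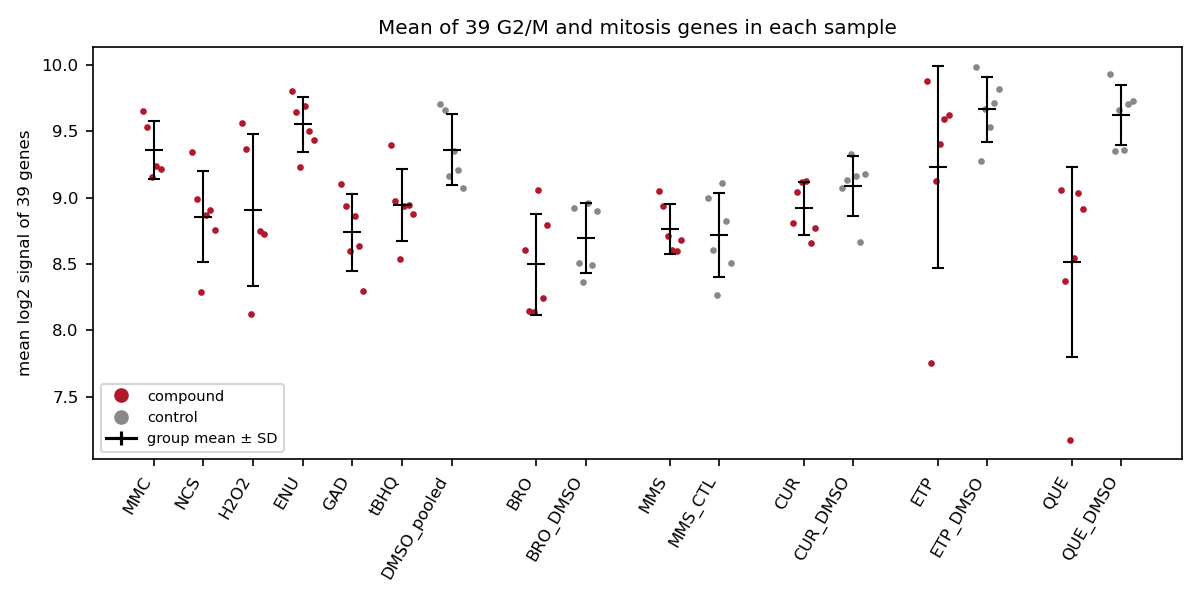
Mean log2 signal of the 39 genes in each sample (points), with the group mean and SD (bars), for the 11 compounds (red) and the 6 controls (grey), each set side by side with its control at the right. The 6 QUE samples lie between 7.17 and 9.06, below every QUE_DMSO sample, and 1 ETP sample stands apart at 7.76.

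By gene, QUE lowered 30 of 39 and raised 0 (30 lower, against 6.65% of all tested genes called lower and 6.38% called higher). GAD lowered 21 (15% of all tested genes lower, 11.1% higher) and raised 0. tBHQ lowered 10 (4.44% lower, 5.39% higher) and raised 0, and NCS lowered 6 (0.966% lower, 1.48% higher) and raised 0. MMS lowered 1 and raised 2 (6.56% lower, 4.46% higher). ENU raised 1 and lowered 0 (4.76% higher, 6.11% lower), ETP lowered 2 (0.618% lower, 2.06% higher) and BRO lowered 1 (4.93% lower, 2.46% higher). The shares in ENU, MMS and BRO were near or below those of all genes. MMC (0% lower, 0.165% higher), H2O2 (0.165% lower, 0.765% higher) and CUR (0.931% lower, 1.27% higher) changed 0 of the 39 in limma, where the unadjusted p was under 0.05 in 2 of them in MMC (5.13%, against 6.69% of all tested genes), 12 in H2O2 (30.8%, against 15.5%) and 11 in CUR (28.2%, against 24.1%).

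The median log2 fold change of the 39 genes was -1.01 in QUE, -0.62 in GAD, -0.49 in NCS, -0.45 in H2O2, -0.44 in tBHQ, -0.40 in ETP, -0.18 in BRO, -0.17 in CUR, -0.01 in MMC, 0.01 in MMS and 0.17 in ENU. Over all tested genes the median lay between -0.02 and 0.06. All 39 fold changes were negative in QUE, GAD and NCS, 38 in H2O2, 37 in ETP, 35 in tBHQ, 34 in BRO and 33 in CUR. In ENU 31 were positive and in MMS 23. Without MMS_CTL replicate 3, 24 were negative in MMS, with a median of -0.06. Every treated sample was below every control in 24 genes in QUE (4.8% of all tested genes), 17 in GAD (18.4%), 9 in tBHQ (6.92%), 4 in CUR (1.36%) and 3 in NCS (1.67%). It was 0 genes in MMC (0.148%), H2O2 (1.09%), ENU (7.75%), BRO (7.08%), MMS (8.43%) and ETP (1.17%). Every treated sample was above every control in 1 gene in ENU (8.68% of all tested genes) and 2 in MMS (11.1%), shares below those of all genes.

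**Figure D2:**
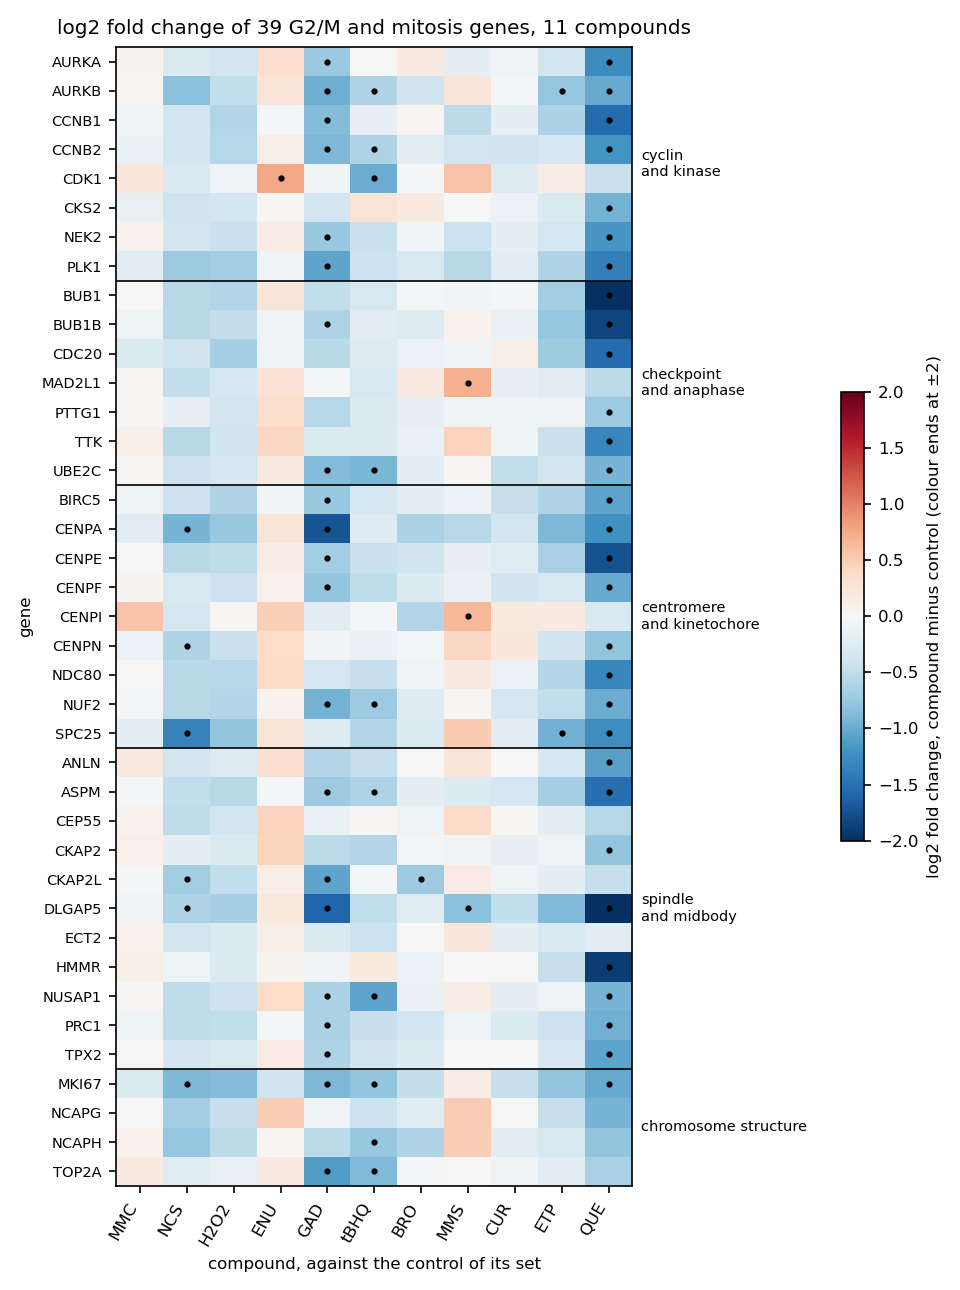
log2 fold change of each gene (rows, grouped by role) in each compound (columns) against the control of its set, blue for lower and red for higher, with a dot where the gene was called. QUE has 30 dots, GAD 21 and tBHQ 10, and ENU and MMS hold the red cells with a dot, CDK1 in ENU and MAD2L1 and CENPI in MMS.

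Samples with the same replicate number moved together, with a correlation above 0.1 in every pair, in all compounds but ETP and MMS. In the compounds that met this rule, a fit with the number as a block was read beside the main one. In ETP only the pair with number 2 fell short (-0.00219), and the others had 0.242 to 0.65. In ETP 5 of 6 pairs correlated best with their own number, against 3 of 6 in QUE and 0 of 6 in MMS. With the block NCS lowered 10 genes in place of 6 (1.8% of all genes lower), and the added ones were AURKB, NCAPG, NCAPH and PLK1. H2O2 lowered 9 in place of 0 (0.67%), which were BIRC5, BUB1, CDC20, CENPA, DLGAP5, MKI67, NDC80, PLK1 and SPC25. BRO lowered 4 in place of 1 (5.17%), with CENPA, CENPI and NCAPH added. QUE had 32 in place of 30 (7.21%), and the added ones were NCAPG (-0.93, limma adjusted p = 0.032, against 0.062 without the block) and NCAPH (-0.79, adjusted p = 0.026, against 0.067). With the block GAD again lowered 21 (15.1%), tBHQ lowered 10 (4.74%), ENU raised 1 (4.94%), and MMC (0.0957%) and CUR (1.75%) lowered 0. In ETP, outside the rule, the block lowered 4 in place of 2, with CENPA and MKI67 added, and its share of all tested genes is not given.

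Leaving out 1 library at a time moved the counts of some compounds by over 1.5 times. Shares of all tested genes called are not given for these fits. NCS lowered 17 without NCS replicate 1, and 3 without NCS replicate 3 or DMSO_pooled replicate 4. BRO lowered 4 without BRO replicate 4, 2 without BRO replicate 6 or BRO_DMSO replicate 3, and 0 without BRO replicate 2, BRO replicate 3 or BRO_DMSO replicate 6. MMS changed 5 without MMS_CTL replicate 1 or 3 and 6 without MMS_CTL replicate 4. Without MMS_CTL replicate 3 CENPI lost its call and CCNB1 (-0.63), CENPA (-0.68) and PLK1 (-0.74) were called lower. The count was 2 in ENU without DMSO_pooled replicate 1, and 1 in H2O2 without H2O2 replicate 1. ETP lowered 1 when any single one of ETP replicates 3 to 6 or ETP_DMSO replicates 1 and 3 to 6 was left out, and 4 with the number-2 samples of both groups left out. QUE stayed between 24 and 31, with 29 without replicate 3, GAD between 17 and 25, and tBHQ between 7 and 13.

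Most single calls held in all 12 such fits. Exceptions in QUE were AURKB, called in 6 of 12, CENPA in 7, MKI67 and TTK in 9, and NUSAP1 and UBE2C in 10. In GAD they were TPX2 in 7, BUB1B in 9, and NUSAP1 and PRC1 in 10. In tBHQ they were AURKB in 4 and ASPM and CCNB2 in 10, in NCS CENPA in 4, DLGAP5 in 5 and CENPN in 10, in ETP AURKB in 3, in MMS CENPI in 4, and in BRO CKAP2L in 9.

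Among the 8 cyclins and kinases, QUE lowered 7, GAD 6, tBHQ 3 and ETP 1, and ENU raised 1. CCNB1, cyclin B1, the main partner of CDK1, had a lowest, median and highest log2 signal of 7.98, 9.88 and 10.01 in QUE, against 10.74, 11.13 and 11.48 in QUE_DMSO. The groups did not overlap, and QUE replicate 3 was the lowest sample. CCNB1 fell 2.92-fold (log2 -1.54 ± 0.30, SE, limma adjusted p = 0.0041), with -1.23 without that replicate. In GAD it fell to 9.23, 9.88 and 10.43, against 10.40, 10.64 and 11.12 in DMSO_pooled, where the highest GAD sample overlapped the controls (-0.87 ± 0.19, adjusted p = 0.0016). CCNB1 was not called elsewhere, from -0.63 in ETP, or -0.11 without ETP replicate 2, to 0.05 in BRO. CCNB2, cyclin B2, fell in QUE (-1.19), GAD (-0.89) and tBHQ (-0.62), and the mean over its probe sets was -0.36, -0.29 and -0.28. Its 3 other probe sets had mean log2 signals of 2.45 to 3.08, within the range of the blood and epithelial markers, so that this mean is smaller by construction.

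CDK1, the kinase that starts mitosis, was called lower in tBHQ and higher in ENU. In tBHQ it had 9.48, 9.53 and 9.94 as lowest, median and highest, against 10.30, 10.54 and 10.94 in DMSO_pooled, with no overlap (-0.99 ± 0.11, limma adjusted p = 3.2e-05). In ENU it had 11.04, 11.40 and 11.55, above every DMSO_pooled sample (0.78 ± 0.11, adjusted p = 0.00019). In GAD CDK1 had 10.23, 10.55 and 10.76, overlapping its controls, at -0.05. QUE did not pass for CDK1 at -0.44, or -0.21 without QUE replicate 3, with samples from 9.26 to 10.96 against 10.55 to 11.11 in QUE_DMSO. In MMS CDK1 passed the adjusted p (0.0011) at 0.57, under 1.5-fold.

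PLK1, a kinase of mitotic entry and spindle assembly, was dim. It had 3.57, 4.22 and 4.41 in QUE, against 4.92, 5.45 and 5.88 in QUE_DMSO, and 3.91, 4.12 and 4.44 in GAD, against 4.84, 5.08 and 5.84 in DMSO_pooled. Neither pair overlapped, and PLK1 fell in QUE (-1.36 ± 0.18, limma adjusted p = 0.00091) and in GAD (-1.06 ± 0.16, adjusted p = 8.4e-05). Group means near 4 bound how low these can read. PLK1 had -0.73 in NCS and -0.70 in H2O2, called with the block only (adjusted p = 0.0079 and 0.025). AURKA, the spindle pole kinase, fell in QUE (-1.26 ± 0.29, adjusted p = 0.0076) and GAD (-0.74 ± 0.15, adjusted p = 0.00084), and was at 0.0034 in tBHQ. AURKB, the centromere kinase of the chromosomal passenger complex, was called in 4 compounds. It had 6.41, 6.92 and 7.24 in GAD, below every DMSO_pooled sample at 7.55, 7.77 and 8.24 (-0.97). It fell also in QUE (-1.01), ETP (-0.78) and tBHQ (-0.61), and reached -0.81 in NCS (adjusted p = 0.057, or 0.0018 with the block). NEK2, a centrosome kinase, fell in QUE (-1.16) and GAD (-0.77), and CKS2, a CDK subunit, in QUE (-0.95), with 0.26 in tBHQ and 0.18 in BRO.

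**Figure D3:**
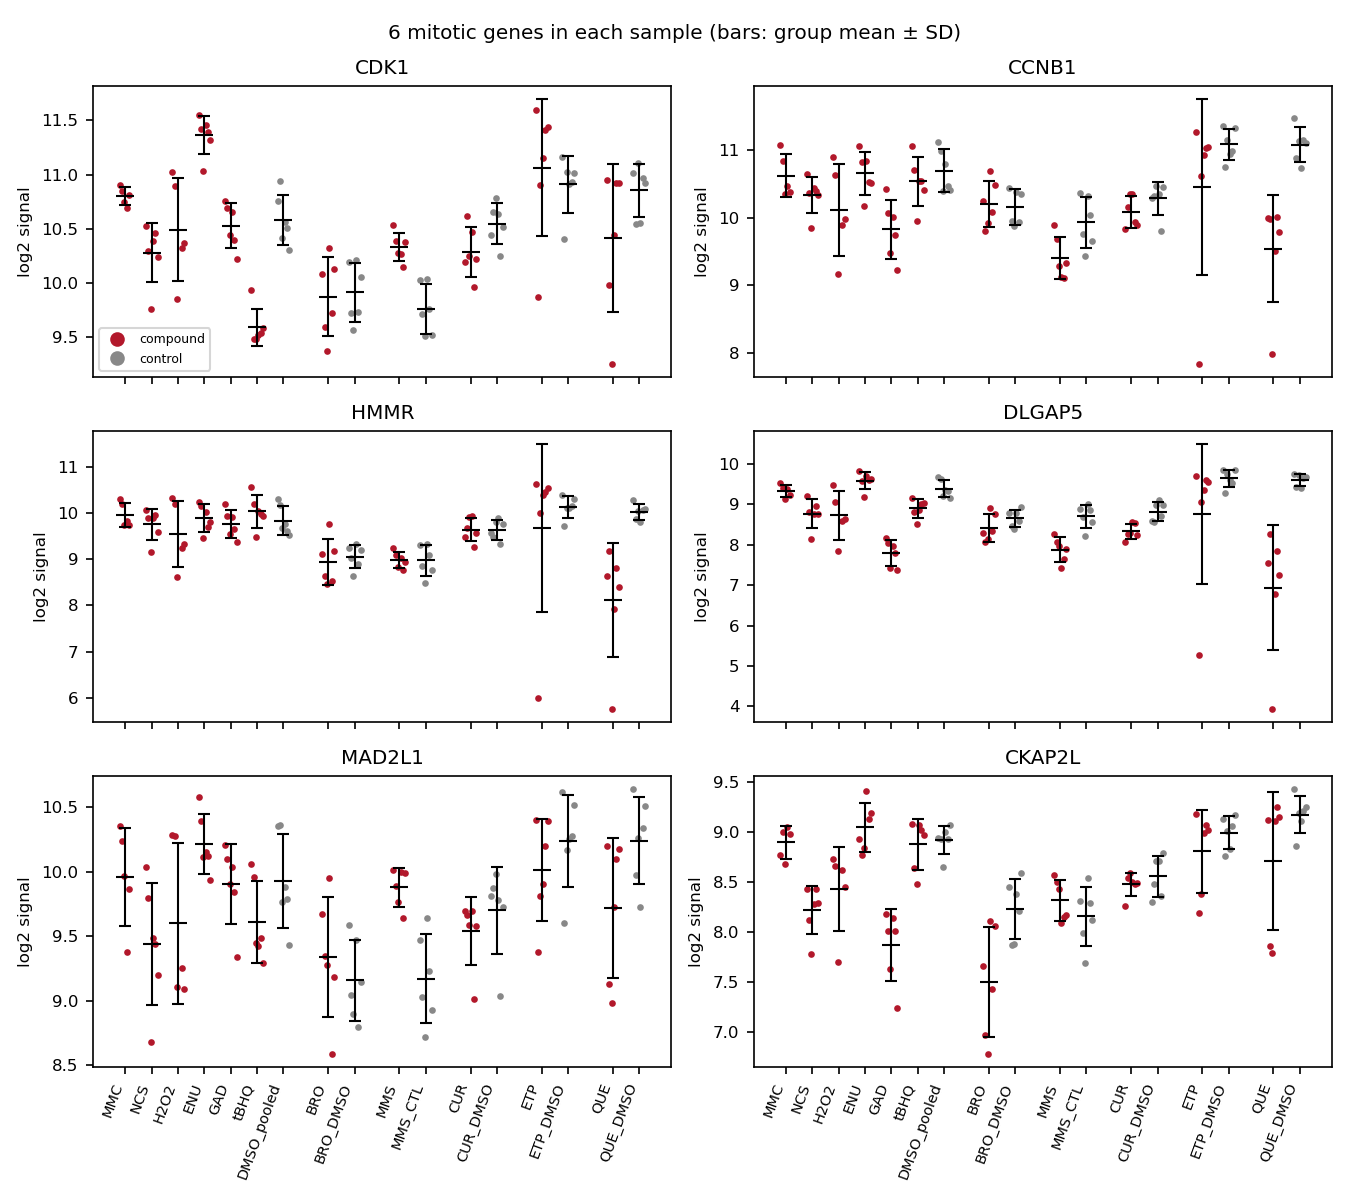
log2 signal of CDK1, CCNB1, HMMR, DLGAP5, MAD2L1 and CKAP2L in each sample (points) with the group mean and SD (bars), for compounds (red) and controls (grey). CDK1 is low in tBHQ (9.48 to 9.94) and high in ENU (11.04 to 11.55), HMMR and DLGAP5 are low in QUE, and CKAP2L is low in NCS, GAD and BRO.

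Among the 7 genes of the spindle checkpoint and anaphase, QUE lowered 6, GAD 2 and tBHQ 1, and MMS raised 1. BUB1, a checkpoint kinase, had 4.84, 7.15 and 7.67 in QUE, against 8.78, 9.03 and 9.22 in QUE_DMSO. Its groups lay more than a log2 unit apart, and BUB1 fell 4.54-fold (-2.18 ± 0.38, limma adjusted p = 0.0025), with -1.79 without QUE replicate 3 and -0.80 as the mean of its probe sets. BUB1B, the checkpoint protein BUBR1, had 5.00, 7.93 and 8.31 in QUE, against 8.96, 9.27 and 9.70 in QUE_DMSO (-1.84 ± 0.46, adjusted p = 0.011). GAD lowered BUB1B by less (-0.62 ± 0.17, adjusted p = 0.0072), while BUB1 had -0.50 there. CDC20, the activator of the APC/C, had 7.57, 9.35 and 9.55 in QUE, against 10.28, 10.47 and 11.14 in QUE_DMSO (-1.54 ± 0.30, adjusted p = 0.0039). CDC20 was called in QUE alone, with -0.71 in ETP (-0.35 without ETP replicate 2), -0.67 in H2O2 (adjusted p = 0.024 with the block) and 0.13 in CUR.

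UBE2C, the ubiquitin-conjugating enzyme that works with the APC/C, was lowered by 3 compounds. It had 9.07, 9.74 and 9.87 in tBHQ and 9.13, 9.70 and 9.99 in GAD, all below the DMSO_pooled samples at 10.23, 10.53 and 10.72. The fold changes of UBE2C were -0.92 ± 0.14 in tBHQ (limma adjusted p = 0.00028), -0.86 ± 0.14 in GAD (adjusted p = 0.00010) and -0.94 ± 0.29 in QUE (adjusted p = 0.027), where 1 QUE sample overlapped the controls. TTK, the kinase MPS1, fell in QUE (-1.31), and PTTG1, securin, also in QUE alone (-0.73), with -0.58 in GAD. MAD2L1, the checkpoint protein MAD2, was lowered by 0 compounds. In MMS MAD2L1 had 9.64, 9.94 and 10.01, against 8.72, 9.13 and 9.64 in MMS_CTL, a touching but nearly separate pair of groups (0.71 ± 0.14, adjusted p = 0.0019).

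Among the 9 centromere and kinetochore genes, QUE lowered 8, GAD 5, NCS 3, tBHQ 1 and ETP 1, and MMS raised 1. CENPA, the centromeric histone, was lowest in GAD, with 6.22, 7.12 and 7.85 against 8.39, 8.75 and 9.37 in DMSO_pooled. The groups did not overlap and CENPA fell 3.31-fold (-1.72 ± 0.25, limma adjusted p = 5.1e-05). CENPA fell also in QUE (-1.21) and NCS (-0.94 ± 0.25, adjusted p = 0.040). SPC25, a subunit of the NDC80 complex, had 5.94, 6.42 and 7.71 in NCS, against 7.48, 7.88 and 8.55 in DMSO_pooled, and 1 NCS sample overlapped the controls (-1.34 ± 0.28, adjusted p = 0.014). In ETP SPC25 had 7.09, 7.60 and 8.39, against 8.01, 8.77 and 9.002 in ETP_DMSO (-0.97 ± 0.20, adjusted p = 0.017), and it was -0.98 without the number-2 samples. SPC25 fell in QUE (-1.25) and had 0.53 in MMS.

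CENPE, a kinesin of the kinetochore that the list holds under its centromere name, fell in QUE (-1.75 ± 0.37, limma adjusted p = 0.0055) and GAD (-0.69). CENPF, a kinetochore and cell cycle marker protein, had 7.89, 9.43 and 9.77 in QUE, against 10.08, 10.21 and 10.45 in QUE_DMSO (-1.01), and fell in GAD (-0.78). BIRC5, survivin, a passenger complex subunit that also inhibits cell death, fell in QUE (-1.06 ± 0.27, adjusted p = 0.013) and GAD (-0.76 ± 0.19, adjusted p = 0.0036). NDC80, which binds spindle fibres, fell in QUE (-1.30), and NUF2, its partner, in QUE (-0.996), GAD (-0.95) and tBHQ (-0.72). CENPN, which reads the centromeric nucleosome, fell in QUE (-0.79) and NCS (-0.61), but the mean of its probe sets was not past the threshold (-0.21 and -0.44). Its other probe sets had mean log2 signals of 7.79, 5.72 and 2.93. In NCS they had -0.55, -0.58 and -0.03, so that a dim one made the mean smaller. In QUE they had 0.17, -0.28 and 0.05, where the brightest of them went the other way. CENPI, an inner kinetochore protein, was lowered by 0 compounds. It had 5.08, 5.45 and 5.90 in MMS, against 4.06, 4.94 and 5.51 in MMS_CTL, with overlap (0.67 ± 0.24, adjusted p = 0.048, or 0.52 and adjusted p = 0.075 without MMS_CTL replicate 3).

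Among the 11 spindle and midbody genes, QUE lowered 8, GAD 6, NCS 2, tBHQ 2, BRO 1 and MMS 1. DLGAP5, a spindle fibre stabiliser known as HURP, had the largest fall of all 39 genes. It had 3.94, 7.40 and 8.27 in QUE, against 9.39, 9.66 and 9.75 in QUE_DMSO, more than a log2 unit apart. DLGAP5 fell 6.36-fold (-2.67 ± 0.56, limma adjusted p = 0.0054), with -2.07 without QUE replicate 3. In GAD DLGAP5 had 7.37, 7.88 and 8.16, against 9.16, 9.34 and 9.67 in DMSO_pooled, with no overlap (-1.59 ± 0.15, adjusted p = 8.5e-07). It fell in MMS too, with 7.42, 7.93 and 8.27 against 8.22, 8.78 and 9.01 in MMS_CTL (-0.83 ± 0.15, adjusted p = 0.0013), and in NCS (-0.62 ± 0.15, adjusted p = 0.028).

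HMMR, a spindle assembly factor and hyaluronan receptor, had 5.77, 8.52 and 9.19 in QUE, against 9.81, 10.04 and 10.28 in QUE_DMSO (-1.90 ± 0.45, limma adjusted p = 0.0085), with -1.43 without QUE replicate 3. The other 10 compounds lay between -0.46 in ETP, or 0.27 without ETP replicate 2, and 0.20 for HMMR, and it was called in 0 of them. CKAP2L, a spindle pole protein, was called in 3 compounds and not in QUE (-0.46, or -0.28 without QUE replicate 3). CKAP2L had 7.25, 8.02 and 8.18 in GAD and 7.79, 8.29 and 8.43 in NCS, both below every DMSO_pooled sample at 8.65, 8.94 and 9.07. The fold changes were -1.05 ± 0.14 in GAD (adjusted p = 3.0e-05) and -0.70 ± 0.11 in NCS (adjusted p = 0.0031). BRO had 6.79, 7.54 and 8.11, against 7.87, 8.30 and 8.597 in BRO_DMSO, with overlap, and CKAP2L was the 1 gene called there (-0.73 ± 0.22, adjusted p = 0.024).

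NUSAP1, a spindle protein, had 8.51, 9.01 and 9.24 in tBHQ, against 9.71, 9.92 and 10.27 in DMSO_pooled, with no overlap (-1.05 ± 0.13, limma adjusted p = 6.1e-05), and fell in QUE (-0.94) and GAD (-0.64). ASPM, a spindle pole protein, fell in QUE (-1.51), GAD (-0.72) and tBHQ (-0.62). TPX2, an AURKA activator, and PRC1, which bundles fibres of the central spindle, fell in QUE (-1.06 and -0.97) and GAD (-0.62 and -0.63). ANLN, a ring protein of cytokinesis, fell in QUE (-1.09). CKAP2, a spindle protein, was called in QUE (-0.79), and its 1 other probe set, with a mean log2 signal of 3.97 over all arrays, had 0.99, so that their mean was 0.10. ECT2, a trigger of cytokinesis, and CEP55, a midbody protein, were called in 0 compounds, with ECT2 from -0.44 to 0.22 and CEP55 from -0.58 in QUE, or -0.32 without QUE replicate 3, to 0.47.

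Among the 4 chromosome genes, tBHQ lowered 3, GAD 2, NCS 1 and QUE 1. TOP2A, topoisomerase II alpha, which untangles sister chromatids and is the target of etoposide, had 9.92, 10.26 and 10.36 in tBHQ and 9.32, 10.05 and 10.39 in GAD. Both groups were below every DMSO_pooled sample, at 10.96, 11.10 and 11.27. TOP2A fell in tBHQ (-0.89 ± 0.09, limma adjusted p = 8.6e-06) and in GAD (-1.12 ± 0.16, adjusted p = 5.1e-05). In QUE TOP2A had 9.55, 11.05 and 11.29, against 10.95, 11.65 and 11.77 in QUE_DMSO, with overlap and no call (-0.64, or -0.38 without QUE replicate 3), and in ETP it had -0.21, or 0.12 without ETP replicate 2. MKI67, the Ki-67 proliferation antigen, was called in 4 compounds, QUE (-1.01), NCS (-0.91), GAD (-0.90) and tBHQ (-0.78). In NCS MKI67 had 7.27, 8.09 and 8.78, against 8.71, 8.93 and 9.31 in DMSO_pooled, with 1 NCS sample inside the control range (adjusted p = 0.017). H2O2 had 6.89, 8.07, 8.13, 8.59 and 8.76 for MKI67, below the controls in 4 of 5 samples (-0.86 ± 0.28, adjusted p = 0.14, or 0.041 with the block). NCAPH, a condensin subunit, fell in tBHQ (-0.76), and NCAPG, another, was called in 0 compounds, from -0.93 in QUE to 0.51 in MMS.

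Across compounds, AURKB, DLGAP5 and MKI67 were called lower in 4, and 8 genes in 3, 12 in 2, 11 in 1 and 5 in 0, which were MAD2L1, CENPI, ECT2, CEP55 and NCAPG. QUE and GAD, which have different controls, shared 19 called genes, 63.3% of the 30 in QUE and 90.5% of the 21 in GAD, where QUE called 76.9% of the 39. CKAP2L and TOP2A were the genes called in GAD and not in QUE. QUE and tBHQ shared 7, which were 23.3% of the 30 in QUE and 70% of the 10 in tBHQ, again beside 76.9% of the 39 in QUE, with CDK1, NCAPH and TOP2A in tBHQ and not in QUE.

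Differences between compounds were tested in 1 limma fit of all 17 groups, each compound relative to its control, for 9 pairs, 2 of them added after the data were seen. Each compound had 1 dose, picked on total p53 protein as stated above, and doses were not matched in concentration. GAD minus ENU was lower in 28 of 39 genes and higher in 0 (12.2% of all tested genes lower, 7.09% higher), the largest in CENPA (-1.97 ± 0.30, adjusted p = 2.6e-08) and DLGAP5 (-1.79 ± 0.36, adjusted p = 1.5e-05). Without GAD replicate 6 the count for GAD minus ENU was 20. ENU minus NCS was higher in 21 and lower in 0 (5.25% higher, 8.26% lower), with SPC25 at 1.60 ± 0.26 (adjusted p = 4.2e-07) and CDK1 at 1.08 ± 0.19 (adjusted p = 1.8e-06), and the count was 13 without NCS replicate 3. QUE minus CUR was lower in 23 and higher in 0 (6.63% lower, 5.2% higher), with DLGAP5 at -2.18 ± 0.50 (adjusted p = 0.00072) and BUB1 at -2.14 ± 0.42 (adjusted p = 7.6e-05). Without QUE replicate 3 that count was 13.

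QUE minus GAD, one of the pairs added later, was lower in 10 and higher in 0 (11% lower, 15% higher). HMMR (-1.83 ± 0.50, limma adjusted p = 0.0017) and BUB1 (-1.69 ± 0.42, adjusted p = 0.00057) led these, and without QUE replicate 3 the count was 3 lower and 2 higher. The other added pair, tBHQ minus GAD, was lower in 1, CDK1 (-0.94 ± 0.19, adjusted p = 1.0e-05), and higher in 7 (10.1% lower, 15.6% higher), with CENPA at 1.47 ± 0.30 (adjusted p = 1.4e-05), DLGAP5 at 1.10 and CKAP2L at 1.01, and 5 genes in all without tBHQ replicate 1. tBHQ minus H2O2 was lower in CDK1 (-0.90), TOP2A (-0.74) and NUSAP1 (-0.64) and higher in CKS2 (0.63), so 3 and 1 (5.19% lower, 4.84% higher). NCS minus MMC was lower in SPC25 (-1.15 ± 0.27, adjusted p = 0.016), 1 of 39 (0.331% lower, 0.122% higher), and the count was 0 without MMC replicate 1, MMC replicate 2 or NCS replicate 3 and 5 without NCS replicate 1. All 39 differences of NCS minus MMC were negative with a median of -0.52, and 21 had an unadjusted p under 0.05 (53.8%, against 11.3% of all tested genes). With the replicate number as a block NCS minus MMC was lower in 6 (1.02% of all tested genes lower), which were AURKB, CENPI, CKAP2L, NCAPG, NCAPH and SPC25. MMS minus ENU differed in 0 genes in limma (3.89% lower, 3.93% higher, 3 of 39 with an unadjusted p under 0.05, 7.69%, against 29.5% of all tested genes). ETP minus NCS differed in 0 (0% lower, 0.0174% higher, 0 of 39 under 0.05, against 4.14% of all). For these last pairs the median differences of the 39 genes were -0.08 and 0.05, with single genes from -1.03 to 0.55 and from -0.38 to 0.52. Without ETP replicate 2 the median of ETP against its own control was -0.11, beside -0.49 in NCS. Leaving out any single library kept the count at 0 in ETP minus NCS.

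Other genes of the same programme were read in 3 surrounding lists. Of 55 other mitotic genes, QUE lowered 31 and raised 0, GAD lowered 23 and raised 1, and tBHQ lowered 12 and raised 0. The shares lowered were 56.4% in QUE, 41.8% in GAD and 21.8% in tBHQ, against 6.65%, 15% and 4.44% of all tested genes. NCS lowered 5 (9.09%, against 0.966%). BRO lowered 3 (5.45%, against 4.93%) and CUR 1 (1.82%, against 0.931%), near the shares of all genes, and MMC, H2O2 and ETP changed 0. Without QUE replicate 3 QUE lowered 23 of the 55. In QUE the largest falls of that list were TROAP, a spindle-associated protein (-1.73 ± 0.23, limma adjusted p = 0.00091), PSRC1, a spindle protein (-1.68), and CDCA3, a trigger of mitotic entry (-1.45). CCNA2, cyclin A2, fell in QUE (-1.12), and CDCA8 and HJURP, partners of AURKB and CENPA, fell in QUE (-1.09 and -0.92, with HJURP at -0.60 without QUE replicate 3) and GAD (-0.71 and -0.96). In GAD PSRC1 (-1.86), PIMREG (-1.75) and CDCA3 (-1.60) led, and SKA1, a kinetochore protein, rose (1.01). In tBHQ FBXO5, an APC/C inhibitor known as EMI1, led (-1.32 ± 0.19, adjusted p = 0.00020).

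MMS and ENU raised genes of this list. MMS raised 15 of the 55 genes (27.3%, against 4.46% of all tested genes) and lowered 3 (5.45%, against 6.56%). SKA1 (1.02 ± 0.23, limma adjusted p = 0.0048), SKA3 (0.89), and GMNN, a replication licensing inhibitor (0.80), were the highest. TROAP, PIMREG and CCNF were the 3 lower ones. Without MMS_CTL replicate 3 MMS raised 10 and lowered 5. ENU raised 7 (12.7%, against 4.76%) and lowered 0 (against 6.11%), led by SKA1 (0.91), SGO1, the guardian of centromere cohesion (0.88), and FAM83D (0.66).

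Of the 19 regulators of the programme, GAD lowered 4 (21.1%, against 15% of all tested genes) and raised 2 (10.5%, against 11.1%). QUE lowered 3 (15.8%, against 6.65%) and raised 1 (5.26%, against 6.38%). tBHQ lowered 2 (10.5%, against 4.44%) and MMS raised 3 (15.8%, against 4.46%). NCS, BRO and ETP each lowered 1 (5.26%, against 0.966%, 4.93% and 0.618%), and the remaining compounds changed 0. FOXM1 and MYBL2, activators of the programme, were called in 0 compounds. FOXM1 had -0.49 in QUE (-0.27 without QUE replicate 3), -0.35 in GAD and -0.50 in NCS, with limma adjusted p = 0.28, 0.14 and 0.23, and MYBL2 had -0.30 (-0.12 without QUE replicate 3), -0.15 and -0.72. E2F8, a repressor of the E2F family, was called lower in 6 compounds. It had 3.40, 3.97 and 4.49 in GAD, against 5.24, 5.89 and 7.02 in DMSO_pooled (-2.09 ± 0.27, adjusted p = 1.6e-05). Those GAD values reach the level of the blood and epithelial markers, so the fold is limited by how low E2F8 can read. E2F8 also fell in tBHQ (-1.38), NCS (-1.29), QUE (-1.22), ETP (-0.94) and BRO (-0.83). E2F7 rose in GAD (0.77) and QUE (0.62, or 0.58 and under 1.5-fold without QUE replicate 3). CDC25B and CDC25C, phosphatases that activate CDK1, fell in GAD (-1.21 and -0.86) and QUE (-0.89 and -1.02), and WEE1, the kinase that restrains CDK1, fell in GAD (-0.74). RBL1, the pocket protein p107 of DREAM, rose in MMS (1.03) and fell in tBHQ (-1.06), and LIN9, a MuvB subunit, rose in GAD (0.91) and MMS (0.79).

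Of the 15 APC/C genes, which encode subunits of the ligase and its activator FZR1, GAD raised 1 (ANAPC7, 0.72) and QUE lowered 1 (ANAPC15, -0.90), and the other 9 compounds changed 0. Each was 6.67% of the list, against 11.1% of all tested genes higher in GAD and 6.65% lower in QUE. FZR1 lay between -0.25 and 0.23. The median of the list was -0.12 in QUE and 0.10 in GAD, beside -1.01 and -0.62 for the 39 genes. The surrounding lists were chosen with earlier results of these data known, and their counts are given as descriptions.

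**Figure D4:**
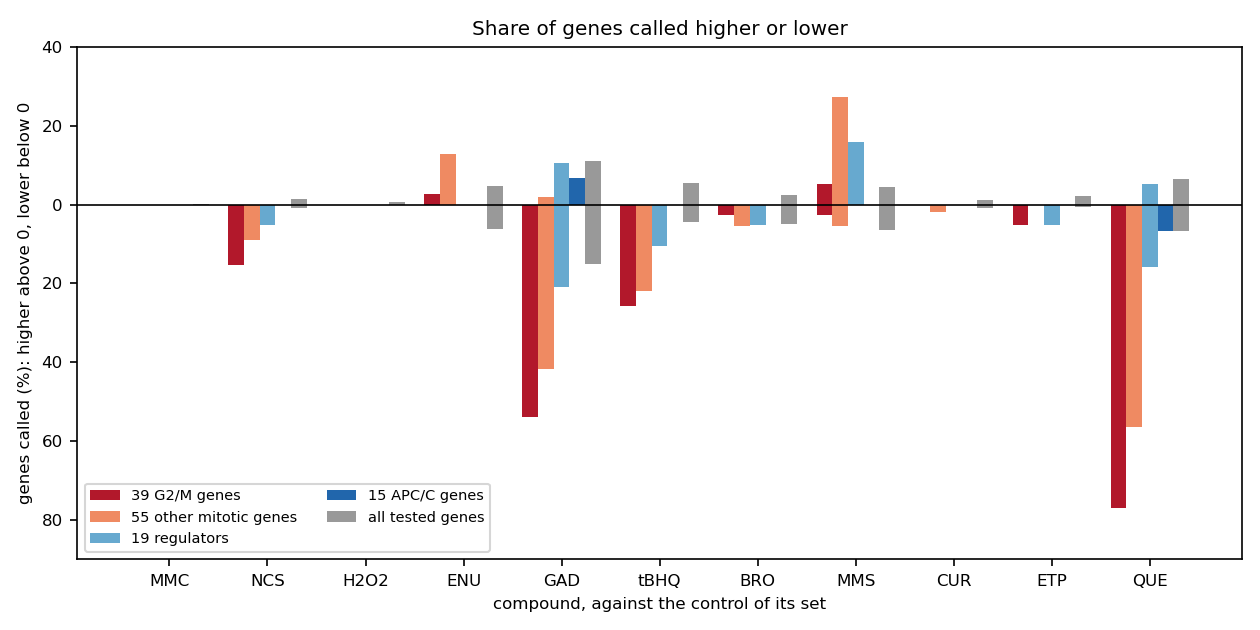
Share of genes called higher (above 0) or lower (below 0) in each compound against its control, for the 39 genes, the 55 other mitotic genes, the 19 regulators, the 15 APC/C genes and all 11496 tested genes. In QUE, GAD and tBHQ the 39 genes and the other mitotic genes have larger shares called lower than all tested genes (6.65%, 15% and 4.44%), and in MMS the other mitotic genes have a larger share called higher.

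Of the 74 called values of the 39 genes, 42 had another probe set of the same gene. Those gave 80 further values, 73 with the same sign. Among the 51 with a mean log2 signal of 4 or more, 50 had the same sign, and the other was CENPN in QUE.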

How the data were processed

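The data are 101 Affymetrix HT HG-U133+ PM arrays of HT1080 cells. Values are log2 signals as deposited, for which the submitters' processing notes name GCRMA and Partek, and were used as the authors gave them. Of 54715 probe sets, 102 array controls were left out, 40914 had 1 gene, 864 had several and 12835 had none, and only those with 1 gene were used. A pair of ETP_DMSO arrays labelled 2 and 2-2 (SD of their difference 0.163, against 0.2596 for the next closest pair of that group) was averaged, which left 100 samples. The number of arrays limits the precision.

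Genes were tested with limma 3.58.1 (lmFit and eBayes, R 4.3.3), each compound with its control alone, and compound pairs in 1 fit of all 17 groups, with Benjamini-Hochberg adjustment over 11496 genes, an adjusted p under 0.05 and at least 1.5-fold. The procedure was tested on simulated data. Tables were handled with pandas 2.3.3, numpy 2.4.6 and scipy 1.17.1, and figures with matplotlib 3.10.9. Deviations from the group mean of samples with the same replicate number correlated over genes by more than 0.1 in every pair in 9 compounds (lowest 0.157 in QUE, highest 0.844 in MMC), and were read as paired. ETP (from -0.00219) and MMS (from -0.134) were not. Alternatives changed the filter, probe set choice, normalization, variance model, fold minimum, replicate block and samples.

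The members and lists were chosen with earlier results of these data known. A panel of 12 members (CCNB1, CDK1, PLK1, AURKA, AURKB, CDC20, BUB1, CENPF, TOP2A, MKI67, BIRC5 and UBE2C) was always named, with up to 4 called members per compound and direction and those called in most or no compounds. In the surrounding lists the 3 largest changes per compound and a few fixed regulators were named. Other members were named after their values were seen. The pairs QUE minus GAD and tBHQ minus GAD were added after seeing the data.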

Additional observations from a re-analysis of the deposited data

Results flagged for a closer look

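A sample far from the others of its group was found in 23 of 221 sets of samples (the mean of the 39 genes and 12 panel genes in each group). Chance gives about 1 in 20 for independent sets. The sets of a group share the same samples, so an excess cannot be judged from this count. ETP replicate 2 gave 7 of the 23 and QUE replicate 3 gave 8. ETP replicate 2 was the lowest of its group for the mean (7.76), CCNB1 (7.84), PLK1 (3.65), AURKA (7.85), BUB1 (5.17), CENPF (8.09) and UBE2C (8.69). ETP_DMSO replicate 2 was lowest for CDK1 (10.41) and AURKA (9.96). QUE replicate 3 was lowest for the mean (7.17), CCNB1 (7.98), AURKA (7.68), CDC20 (7.57), CENPF (7.89), TOP2A (9.55), BIRC5 (7.37) and UBE2C (8.57). Single genes stood apart in NCS replicate 3 (CDK1, 9.76), H2O2 replicate 3 (TOP2A, 10.17), ENU replicate 3 (BUB1, 8.56), tBHQ replicate 1 (CDK1, 9.94, and AURKB, 8.08, both the highest) and CUR_DMSO replicate 5 (CCNB1, 9.81).

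Compounds differed from each other in limma's test of the difference in 1 gene for NCS minus MMC, 21 for ENU minus NCS, 28 for GAD minus ENU, 4 for tBHQ minus H2O2, 23 for QUE minus CUR, 10 for QUE minus GAD and 8 for tBHQ minus GAD. The part of the libraries that stood apart in these counts was measured only by leaving each out. In some pairs an unadjusted limma p under 0.05 was rarer among the member genes than among all tested genes. The shares were 17.9% against 38.3% in tBHQ minus H2O2, 35.9% against 50.4% in QUE minus GAD and 25.6% against 61.4% in tBHQ minus GAD. It was more frequent in NCS minus MMC (53.8%, against 11.3%) and ENU minus NCS (79.5%, against 45.9%). The same held in GAD minus ENU (89.7%, against 55.2%) and QUE minus CUR (71.8%, against 36%).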

How the results depend on the processing

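Counts are of the 39 genes. With no fold minimum the count was 10 in NCS, 9 in ENU, 18 in tBHQ, 12 in MMS, 5 in CUR and 2 in NCS minus MMC, since the threshold is wider. Shares of all tested genes at that threshold are not given. In limma the unadjusted p was under 0.05 in 35.9% of the 39 in ENU (43.1% of all tested genes) and 38.5% in MMS (45.0%). The same share was 76.9% in NCS (24.3%), 61.5% in tBHQ (42.1%) and 28.2% in CUR (24.1%). With equal array medians the count was 11 in NCS, 6 in MMS (1 lower and 5 higher), 2 in NCS minus MMC and 5 in tBHQ minus GAD. The calls among all tested genes moved there too. Calls lower went from 111 to 188 in NCS and from 38 to 59 in NCS minus MMC. In MMS calls higher went from 513 to 797 and calls lower from 754 to 609. In tBHQ minus GAD calls lower went from 1161 to 1908 and calls higher from 1791 to 1361. With 1 fit of all groups the count of the 39 genes was 1 in H2O2, 1 in MMS and 4 in ETP. ETP had 1 with no filter, 1 with the mean of all probe sets and 4 with the number-2 samples left out, an alternative chosen after seeing the data. With the replicate block it was 10 in NCS, 9 in H2O2, 4 in BRO, 4 in ETP and 6 in NCS minus MMC (the pairs were run with the block after seeing the data), and the block moved no other count by over 1.5 times. In ETP and MMS, which were not read as paired, 5 of 6 and 0 of 6 pairs correlated best with their own number, against 3 of 6 in QUE. With the block MMS kept 1 lower and 2 higher. CKAP2 in QUE turned to 0.10 with the mean of all probe sets. Apart from the wider threshold, the cause was not tested.

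Leaving out 1 library gave counts of 3 to 17 in NCS, 0 to 1 in H2O2, 1 to 2 in ENU, 0 to 4 in BRO, 2 to 6 in MMS, 1 to 3 in ETP, 0 to 5 in NCS minus MMC, 13 to 26 in ENU minus NCS, 13 to 24 in QUE minus CUR, 5 to 13 in QUE minus GAD and 5 to 8 in tBHQ minus GAD. The libraries behind these counts are named in the report, and shares of all tested genes are not given for these fits. The mean of the 39 genes moved by less than 1 SD in all 55 other settings. Of single called values of compounds against their controls, under alternatives other than leaving out a library, 670 kept their call, 29 lost it and 1 reversed. The alternative with no fold minimum used the same fit, so no call could be lost there. With QUE samples 2 and 3 left out QUE had 25, and with the number-3 samples of H2O2 and DMSO_pooled left out H2O2 had 0, both chosen after seeing the data.

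Equal array medians moved the median of all genes by 0.12 in GAD, 0.1 in BRO, 0.118 in GAD minus ENU, -0.112 in QUE minus GAD and -0.147 in tBHQ minus GAD. The share of all calls that were higher was then 40.1% in NCS (60.5% as deposited), 66.3% in H2O2 (82.2%), 57.8% in GAD (42.5%), 57.1% in BRO (33.3%), 56.7% in MMS (40.5%), 64.7% in ETP (76.9%), 53.2% in ENU minus NCS (38.9%), 55.6% in GAD minus ENU (36.8%), 67.8% in MMS minus ENU (50.3%), 43.1% in QUE minus GAD (57.7%) and 41.6% in tBHQ minus GAD (60.7%). With quantile normalization it was 44.7% in CUR (57.7%) and 44.4% in BRO (33.3%). PLK1 in QUE (3.57 to 4.41) lay close to the levels of the blood and epithelial markers (2.00 to 3.68), which limits how low it reads.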
